A study of Mus musculus with 9 samples.

Results

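Gene expression after 10 mM 2-deoxyglucose (2-DG) was compared with that of untreated control cultures in primary immature neurons of the mouse, as measured by RNA sequencing. The comparison used 6 of the 9 libraries of the study, chosen by the dose and replicate number in the library titles. These were 3 libraries from cultures given 10 mM 2-DG for 6 h and 3 from control cultures with no added compound. The other 3 libraries were from cultures given 1 mM for 6 h. They entered the model for its estimate of spread, and are set beside the high dose where the order of doses matters. All cultures were started from embryos of embryonic day 14, grown with bovine and horse serum in the medium, and treated after 2 days in vitro. The labels name no strain, sex or brain region, and a serum medium does not keep other cell types out of the dish. The study's design calls the replicates independent without naming the cultures, so the p-values measure the spread between these libraries. Gene counts summed to 45.4, 43.3 and 48.2 M (M, mega) at 10 mM, against 40.1, 42.4 and 45.0 M in the control, for replicates 1, 2 and 3. Libraries with the same replicate number deviated from their group means together (processing is described after the results), so all tests compare the doses within replicate numbers.

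2-DG enters cells through glucose transporters and is phosphorylated by hexokinase, but the product does not go on through glycolysis. 2-DG also resembles mannose and disturbs the assembly of N-linked glycans on proteins in the endoplasmic reticulum (ER), where unfolded proteins then accumulate. Cells answer ER stress through 3 sensors, PERK, IRE1 and ATF6. PERK phosphorylates the initiation factor eIF2 alpha, which lowers general translation but favours that of the transcription factor ATF4, while IRE1 (through XBP1) and ATF6 act on genes of ER chaperones and of protein disposal. The study's title links this pathway with transcription of Bdnf, the neurotrophin that supports the survival and synapses of neurons.

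The high dose moved most of the transcriptome a little and a small group of genes a lot. Of 15153 genes tested, 5213 (34.4%) rose and 5117 (33.8%) fell, so that 68.2% changed at an adjusted p below 0.05. Of the genes that changed, 72.7% did so by less than 1.5-fold, and the median log2 fold change (10 mM over control) of all genes tested was −0.011. A gene group with about 34% of its members rising and about as many falling is therefore like the table as a whole, and the size of the changes is given with each count. Where library totals alone set the scale, 38.5% of the calls were rises, against 50.5% with the scaling used here, and the median of all genes moved by −0.091. At least 2-fold changes were made by 359 genes that rose (2.37%) and 668 that fell (4.41%). The order turned at larger sizes: 104 genes rose and 62 fell by at least 4-fold, 48 rose and 8 fell by at least 8-fold, and 20 rose and 0 fell by at least 16-fold. The 2-fold falls lay mostly among genes of low level, with 429 of the 668 in the lowest of 5 equal groups by mean level and 11 in the highest, whereas 119 of the 2-fold rises were in the lowest group and 83 in the highest. Levels are given as CPM, counts scaled for library size. At a minimum fold of 1.5 in the test itself, 581 genes rose and 843 fell, and without the pairing by replicate number 3899 rose and 3639 fell.

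**Figure D1:**
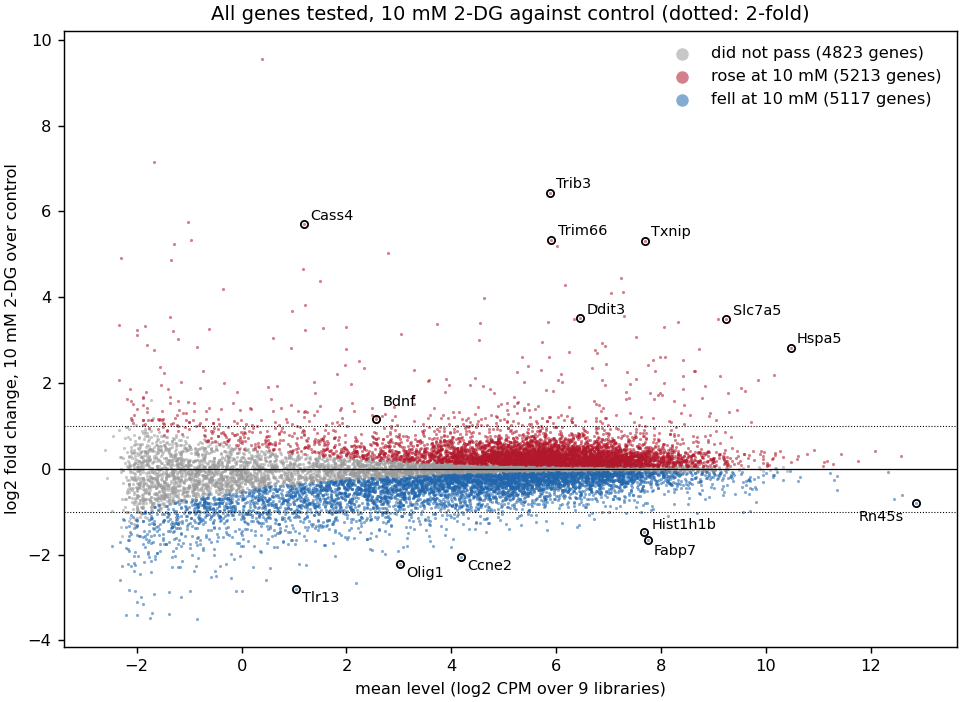
Each point is 1 of the 15153 genes tested, with its mean level over 9 libraries (log2 CPM) on the horizontal axis and its log2 fold change, 10 mM 2-DG over control, on the vertical axis. Red points rose (5213), blue points fell (5117) and grey points did not pass, and the dotted lines mark 2-fold. The largest rises reach further from 0 than the largest falls, and high-level genes with a 2-fold change are mostly red.

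Among the genes that rose most were several known targets and regulators of ATF4. Trib3 encodes a pseudokinase that feeds back on ATF4 and lies on chromosome 2, 152337422 to 152344032, minus strand (GRCm38). It had 112, 103 and 107 CPM at 10 mM, against 1.13, 0.937 and 1.64 CPM in the control, a log2 fold change of 6.44, with an SE of 0.099 and an adjusted p of 9.46e-22. Slc7a3, a transporter of cationic amino acids, had 139, 135 and 135 CPM at 10 mM, against 3.41, 5 and 2.79 CPM in the control, a log2 fold change of 5.19 (SE 0.091). For both genes the lowest library at 10 mM lay many times above the highest control library. The 12 largest rises among genes with a mean log2 CPM of at least 1 were, in order, Trib3, Cass4 (5.69), Trim66 (5.34), Txnip (5.31), Slc7a3, Nupr1 (5.02), Cyb5r2 (4.65), Slc7a11 (4.45), Gdf15 (4.38), Slc6a9 (4.29), Chac1 (4.11) and Arrdc4 (4.1), on the log2 fold scale. Trim66 encodes a chromatin-associated protein of the tripartite motif family and had 113, 115 and 127 CPM at 10 mM, against 2.57, 3.56 and 2.62 CPM in the control. Cass4, a scaffold protein of cell adhesion signalling, had 4.48, 4.41 and 5.76 CPM at 10 mM, against 0.098, 0.0914 and 0.0872 CPM in the control, with 4 counts in each control library. Cyb5r2 is overlapped by Ppfibp2 on the opposite strand, and may include reads of that gene, since no source used here gives the strand setting of the counting. Adm2 encodes the peptide adrenomedullin 2 and was chosen after its values were seen. It had 90, 76 and 113 counts at 10 mM against 0 in every control library, which makes it at least 92.2-fold higher, set against a floor of 3 counts over the control group.

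The transcription factors of the stress response and their regulators rose almost as a block. Of 25 listed genes, 23 rose and 1 fell, 16 rose at least 2-fold and the median log2 fold change was 1.53. Atf4 had 937, 865 and 999 CPM at 10 mM, against 302, 220.3 and 303 CPM in the control, a log2 fold change of 1.78 (SE 0.05). Ddit3 encodes CHOP, a partner and target of ATF4 linked with cell death under lasting stress, and had 149, 148 and 154 CPM at 10 mM, against 13.1, 13.8 and 12.7 CPM in the control, a log2 fold change of 3.51 (SE 0.077). The groups did not overlap for either gene. Nupr1, a small stress-induced chromatin protein, and Chac1, which breaks down glutathione, rose by the amounts above, with 282, 265 and 292 CPM of Chac1 at 10 mM against 19, 13.5 and 16.6 CPM in the control. Further members, chosen after their values were seen, were Atf3 (log2 fold change 3.39), Atf5 (2.69), Cebpb (3.38), Cebpg (1.78), which encode partners or relatives of ATF4, and Ppp1r15a (2.3), which encodes GADD34, the subunit that directs a phosphatase back to eIF2 alpha. Atf5 and Ppp1r15a are overlapped by genes on the opposite strand.

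The genes of the 3 ER stress sensors did not move alike. Eif2ak3, which encodes PERK, had 182, 169 and 187 CPM at 10 mM, against 68.9, 69.1 and 65 CPM in the control (log2 fold change 1.41), and Atf6 had 90.6, 92 and 96.4 CPM at 10 mM, against 38.4, 40.3 and 42.6 CPM in the control (1.2). Both rose, with groups that did not overlap. Ern1, which encodes IRE1, had 16.2, 17.4 and 16.4 CPM at 10 mM, against 13, 14.8 and 15.1 CPM in the control, with a log2 fold change of 0.22 that passed only with the pairing (adjusted p = 0.00331 with it and 0.0688 without). Xbp1, whose RNA is spliced by IRE1, had 282, 291 and 294 CPM at 10 mM, against 67.3, 74.8 and 62.4 CPM in the control (2.08); counts per gene do not separate its spliced and unspliced forms. Among the other kinases of eIF2 alpha, Eif2ak4 (GCN2, which senses uncharged tRNA) had a log2 fold change of 0.05 and did not pass, and Eif2ak2 (PKR, which senses double-stranded RNA) fell by 0.69 on the log2 scale.

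ATF4 is known to pair with C/EBP factors at a short motif, the core of the amino acid response element. It stood in 5 of the 22 promoters of the stress transcription factor group in the table (22.7%). It was searched as TGATGNAA on both strands in windows of 250 bases before to 50 after each gene's start, from RefSeq (GRCm38.p6). Shown here are 5 raised genes that hold it and are described among the results, Asns and Slc7a11 being members of the amino acid groups: up to 40 bases on either side of the match, read 5′ to 3′ on the gene's strand, with the match in capitals. Read on the other strand the motif appears as TTNCATCA.
Asns (chr6:7693210-7693272, minus strand): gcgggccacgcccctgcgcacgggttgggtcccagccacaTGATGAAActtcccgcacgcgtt
Atf3 (chr1:191183396-191183483, minus strand): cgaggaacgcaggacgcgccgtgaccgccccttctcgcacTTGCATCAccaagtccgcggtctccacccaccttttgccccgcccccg
Chac1 (chr2:119351009-119351096, plus strand): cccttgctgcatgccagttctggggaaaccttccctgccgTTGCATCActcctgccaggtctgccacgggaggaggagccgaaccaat
Nupr1 (chr7:126625533-126625620, minus strand): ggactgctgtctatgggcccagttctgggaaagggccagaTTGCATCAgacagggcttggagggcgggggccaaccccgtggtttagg
Slc7a11 (chr3:50443614-50443719, minus strand): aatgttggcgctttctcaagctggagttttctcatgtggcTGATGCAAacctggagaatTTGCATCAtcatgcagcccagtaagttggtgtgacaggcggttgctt
The match began 23 bases before the start in Asns, 110 in Atf3, 193 in Chac1 and 110 in Nupr1. In Slc7a11, which holds the motif on each strand, the first match began 66 bases before the start. Of 80 genes with a promoter that rose at least 4-fold, 17 (21.2%) held the motif, as did 25 of 187 (13.4%) that rose 2-fold to under 4-fold. Among genes that rose less the share was 2.74% of 3688, among those that did not pass it was 2.33% of 3354, and among those that fell at least 2-fold it was 3.81% of 473. The share was 2.8% of the 11107 tested genes with a promoter and 4.51% of all 27025 promoters in the table. The 17 genes were Arid5a, Arl14ep, Asns, Atf3, B230209E15Rik, Chac1, Cyb5r2, Fbln5, Fgf21, Herpud1, Jdp2, Nupr1, Pck2, Slamf9, Slc1a4, Slc7a11 and Trib3. These shares are a description: a match is not a bound site, and the windows leave out any element further away or in an intron.

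ATF4 targets are best known for the supply of amino acids, and the members of these groups that rose did so by large amounts. Of 24 transporters of the plasma membrane, 13 rose and 3 fell, and 7 rose at least 2-fold, while the median log2 fold change was 0.25. With control replicate 1 left out, 5 fell. Slc7a5, the light chain of the exchanger LAT1 for large neutral amino acids, lies on chromosome 8, 121881150 to 121907694, minus strand. It had 1178, 1092 and 1244 CPM at 10 mM, against 103, 105 and 103 CPM in the control, a log2 fold change of 3.49 (SE 0.046). Slc7a11, the cystine and glutamate exchanger, had 240.1, 242 and 294 CPM at 10 mM, against 11.7, 10 and 13.9 CPM in the control, a log2 fold change of 4.45 (SE 0.064). The groups were far apart for both. Slc6a9, the glycine transporter GLYT1, had 142, 146 and 149 CPM at 10 mM, against 6.27, 8.96 and 7.09 CPM in the control; it is overlapped by Ccdc24 and B4galt2 on the opposite strand. Slc3a2, the heavy chain that LAT1 and the cystine exchanger share, rose by a log2 fold change of 2.78, Slc7a1 by 3.31 and Slc1a4 by 2.53, all chosen after their values were seen. The falls were small: Slc7a6 fell by 0.16 and Slc6a6, the taurine transporter, by 0.15 on the log2 scale. Slc1a5, a glutamine transporter, had 7, 8.51 and 9.51 CPM at 10 mM, against 5.39, 5.85 and 8.75 CPM in the control, and the groups overlapped.

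Enzymes that make amino acids divided by compartment and branch. Asparagine synthetase, Asns, had 1062, 1022 and 1121 CPM at 10 mM, against 91.1, 104 and 90.9 CPM in the control, a log2 fold change of 3.48 (SE 0.057). Gpt2, the mitochondrial alanine aminotransferase, rose by 2.6, Aldh18a1, which begins proline synthesis, by 2.16, and Cth, which makes cysteine, by 1.96, on the log2 fold scale. Cbs, an enzyme of the same route to cysteine as Cth, was chosen after its values were seen. It fell by 1.55 on the log2 scale, at a mean log2 CPM below 1. Of 18 such enzymes 12 rose and 4 fell (median 0.34). Prodh, which breaks proline down, fell to 1.52, 0.783 and 1.24 CPM at 10 mM, against 2.65, 2.15 and 2.97 CPM in the control. In serine synthesis and one-carbon metabolism 8 of 19 genes rose and 9 fell (median −0.09), and all 8 rises were at least 2-fold. The 3 serine enzymes Phgdh (log2 fold change 1.45), Psat1 (1.66) and Psph (2.73) rose, as did the mitochondrial enzymes Shmt2 (2.41), Mthfd2 (3.07), Mthfd1l (2.4) and Aldh1l2 (2.52). Mthfd2 had 345, 293 and 359 CPM at 10 mM, against 41.8, 36.4 and 40.3 CPM in the control. Their cytosolic counterparts Shmt1 and Mthfd1 fell by 0.51 and 0.25, and Tyms, which makes thymidylate, fell by 0.56, on the log2 scale. Psph, Shmt2 and Aldh1l2 are each overlapped by a gene on the opposite strand.

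Among the enzymes that charge transfer RNA, most cytosolic members rose and the mitochondrial members were split. Of 20 cytosolic genes 19 rose, 11 of them at least 2-fold, and 1 fell (median 1.31); of 17 mitochondrial genes 7 rose and 6 fell (median 0.048), none of them rising 2-fold. Cars, for cysteine, had 510.2, 438 and 527 CPM at 10 mM, against 78.6, 84 and 77.6 CPM in the control (log2 fold change 2.61), and Nars, for asparagine, had 943, 909.7 and 991 CPM at 10 mM, against 211, 217 and 212 CPM in the control (2.15). No library at 10 mM came near the control range in either. The cytosolic member that fell was Dars, by 0.14 on the log2 scale, a call that was lost without the pairing (adjusted p = 0.147). Wars2 (0.99) and Aars2 (0.62) were the mitochondrial members that rose most. The motif TGATGNAA stood in 5 of the 12 cytosolic synthetase promoters in the table (41.7%), those of Aars, Gars, Iars, Tars and Yars. Xpot, which exports tRNA from the nucleus and was chosen after its values were seen, had a log2 fold change of 1.64.

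Genes of the ER lumen rose together. Of 29 chaperones, disulfide isomerases and oxidases 27 rose and 0 fell, 19 of them at least 2-fold, with a median log2 fold change of 1.45. When control replicate 2 or replicate 2 at either dose was left out, or library totals set the scale, 1 member fell. Hspa5 encodes BiP, the main ER chaperone and the partner that holds the sensors inactive, and lies on chromosome 2, 34771970 to 34777547, plus strand. It had 2340.0, 2373 and 2664 CPM at 10 mM, against 348, 337 and 354 CPM in the control, a log2 fold change of 2.82, with an SE of 0.033 and an adjusted p of 3.72e-23. Sdf2l1, which works with BiP, had 72.4, 92.2 and 77.6 CPM at 10 mM, against 9.9, 11.2 and 9.88 CPM in the control (2.96), and Creld2 had 171, 188 and 193 CPM at 10 mM, against 26.5, 27.4 and 27.4 CPM in the control (2.76). The spread among libraries of a group was small beside the gap in all 3 genes. Calr, a lectin chaperone of glycoproteins, rose by 2.18 and Hyou1, the exchange factor of BiP, by 2.28. Hsp90b1 (2.06), Pdia4 (2.28) and Manf (2.27), a secreted ER protein with trophic effects on neurons, were chosen after their values were seen. Cdnf, the relative of Manf, and Dnajc10 did not pass, with log2 fold changes of 0.46 and −0.07.

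A longer motif, the ER stress response element, is one at which ATF6 and XBP1 are known to act together with the factor NF-Y. It was searched as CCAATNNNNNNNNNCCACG on both strands, and appears as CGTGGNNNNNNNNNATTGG when read on the other strand. Its match is in capitals in 3 of the 7 ER lumen promoters that hold it, shown as examples chosen after their values were seen.
Hspa5 (chr2:34771985-34772083, plus strand): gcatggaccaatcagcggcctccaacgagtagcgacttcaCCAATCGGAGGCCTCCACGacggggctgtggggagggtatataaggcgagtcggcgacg
Creld2 (chr15:88819480-88819578, plus strand): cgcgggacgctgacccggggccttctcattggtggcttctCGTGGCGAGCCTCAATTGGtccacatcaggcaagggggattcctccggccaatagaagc
Hsp90b1 (chr10:86705493-86705694, minus strand): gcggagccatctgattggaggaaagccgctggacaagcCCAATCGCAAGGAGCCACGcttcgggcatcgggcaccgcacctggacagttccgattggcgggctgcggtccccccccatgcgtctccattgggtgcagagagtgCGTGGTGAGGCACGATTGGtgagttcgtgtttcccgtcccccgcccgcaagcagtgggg
The match began 65 bases before the RefSeq start in Hspa5 and 126 in Creld2. In Hspa5 that start lies downstream of the first base of the gene span given above, which is from another annotation (GENCODE). In Hsp90b1, with 2 matches on opposite strands, the first one began 212 bases before the start. Of the 23 ER lumen genes with a promoter 7 (30.4%) held the motif, which were Calr, Canx, Creld2, Dnajc3, Hsp90b1, Hspa5 and Pdia6. The share was 7.5% (6 of 80) among genes that rose at least 4-fold, 1.6% of 187 that rose 2-fold to under 4-fold, 0.108% of 3688 that rose less and 0 of 473 that fell at least 2-fold. It was 0.18% of the tested genes with a promoter and 0.137% of all promoters. In addition, 3 other motifs were searched on both strands, each on its own, so that a site of one may overlap a site of another. TGACGTGG, the core of the unfolded protein response element, stood in 1.25% of the promoters of genes that rose at least 4-fold and 1.08% of those of all tested genes. TGACGTCA, the cyclic AMP response element, stood in 3.75% and 3.6%, and CACGTG, an E-box, in 13.8% and 11.4%; over all promoters in the table the shares of these 3 were 0.714%, 2.03% and 8.09%.

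**Figure D2:**
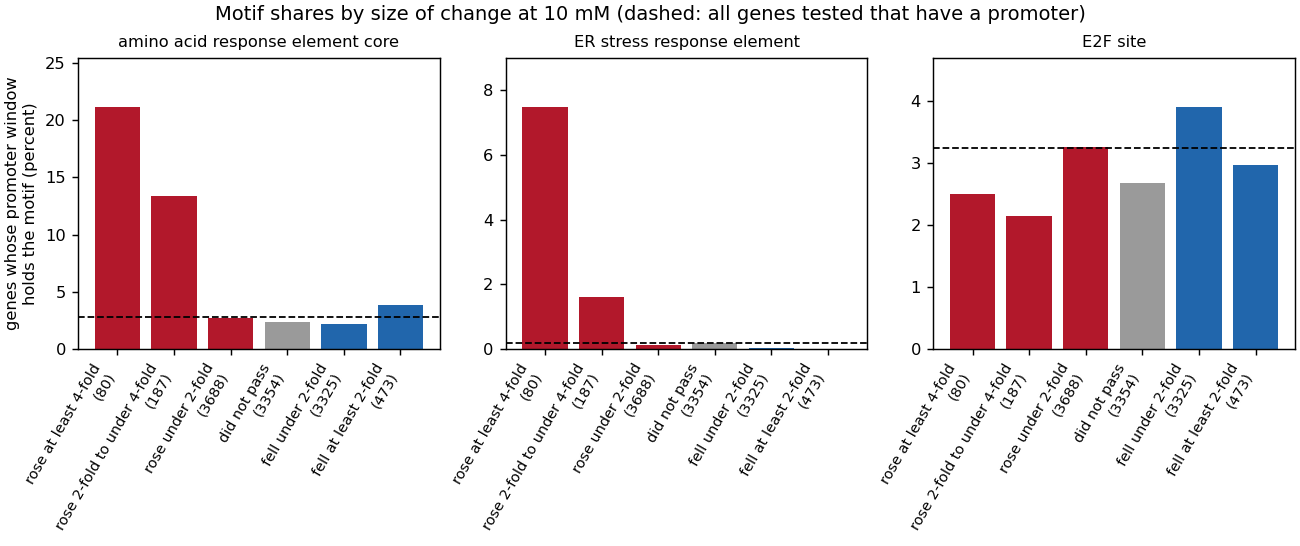
Bars give the percentage of genes in each class of change at 10 mM against control (class sizes in brackets) whose promoter window holds the named motif, and the dashed line is the share among all 11107 tested genes with a promoter. TGATGNAA reaches 21.2% and the ER stress response element 7.5% among genes that rose at least 4-fold, against 2.8% and 0.18% of all tested, while the E2F site is at 2.96% among genes that fell at least 2-fold, against 3.24% of all tested.

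Steps after folding followed the chaperones with smaller changes. Of 24 genes of ER-associated degradation, the disposal route for misfolded proteins, 21 rose and 1 fell (median 0.56). Herpud1, a membrane organiser of that complex, had 579, 609 and 634 CPM at 10 mM, against 58.5, 54.5 and 57.6 CPM in the control (log2 fold change 3.42), and Derl3, a channel component, had 2.52, 3.01 and 3.23 CPM at 10 mM, against 0.294, 0.343 and 0.284 CPM in the control (3.24). Syvn1, the ubiquitin ligase HRD1, rose by 1.5 on the log2 fold scale. Neither Herpud1 nor Derl3 had overlapping groups. Of 40 genes of the translocon and of transport from ER to Golgi 38 rose and 0 fell (median 0.55), with 1 falling where library totals alone set the scale. Sec24d, a cargo adaptor of COPII vesicles, rose most (1.55), followed by Kdelr3, which retrieves ER proteins (1.26, overlapped by Ddx17), Ssr3 (1.04) and Srprb (1.03).

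In sugar pathways that lead into glycoproteins more genes rose than fell. Of 35 genes of mannose, dolichol and N-glycan assembly 22 rose and 6 fell (median 0.18; 18 and 9 with library totals), and the 4 rises of at least 2-fold were in Rpn1 (1.29), Magt1 (1.14), Stt3a (1.11) and Ostc (1.11), all parts of the oligosaccharyltransferase that moves the finished glycan onto proteins. Ost4, a small subunit of the same enzyme, fell by 0.85 on the log2 scale and is overlapped by Agbl5. Alg8, a glucosyltransferase of the glycan precursor, fell to 3.21, 3.42 and 3.01 CPM at 10 mM, against 4.73, 5.6 and 5.21 CPM in the control. In hexosamine synthesis 8 of 11 genes rose and 3 fell (median 0.24). Gfpt1, its rate-limiting enzyme, had 204, 204 and 209 CPM at 10 mM, against 133, 133 and 129 CPM in the control (0.64), and Nagk, which salvages N-acetylglucosamine, fell by 0.69.

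Txnip and Arrdc4, alpha-arrestins that restrain glucose uptake and are targets of the sugar-sensing factor MondoA, were among the largest rises. Txnip lies on chromosome 3, 96557957 to 96561883, plus strand and is overlapped on the opposite strand by the antisense gene Gm15441. It had 465, 422 and 496 CPM at 10 mM, against 5.42, 24.1 and 6.39 CPM in the control, a log2 fold change of 5.31, with an SE of 0.22 and an adjusted p of 2.10e-14. Control replicate 2 stood above the other two control libraries but far below every library at 10 mM. Arrdc4 had 309, 244 and 317 CPM at 10 mM, against 16.6, 18.7 and 15.2 CPM in the control. Klf10, another gene known to respond to glucose, had 74.6, 65.7 and 85.5 CPM at 10 mM, against 13.4, 18.8 and 14.8 CPM in the control (2.26), and Arrdc3 rose by 0.94, while Arrdc1 and Arrdc2 fell by 0.78 and 0.61 on the log2 scale. Over the list of 9 genes 4 rose and 3 fell.

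Glycolytic enzymes went the other way. Of 31 genes of glucose and lactate transport, glycolysis and the pentose phosphate pathway 6 rose and 17 fell (median −0.17; 4 and 20 with library totals). Ldha, lactate dehydrogenase A, had 85.1, 95.3 and 88.1 CPM at 10 mM, against 145, 166 and 147 CPM in the control, a log2 fold change of −0.77 (SE 0.03), and Tpi1, triosephosphate isomerase, fell by 0.79. Aldoc, an aldolase that is also a marker of astrocytes, fell to 30.2, 15.6 and 23.9 CPM at 10 mM, against 71.9, 40.3 and 59.8 CPM in the control. The largest rise was in Pfkfb3, which makes an activator of phosphofructokinase (101, 91.4 and 97.3 CPM at 10 mM, against 59, 62.3 and 59.5 CPM in the control). The glucose transporters Slc2a1 and Slc2a3 and the hexokinase Hk2, chosen after their values were seen, had log2 fold changes of −0.22, 0.027 and 0.075, and of these Slc2a1 fell.

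**Figure D3:**
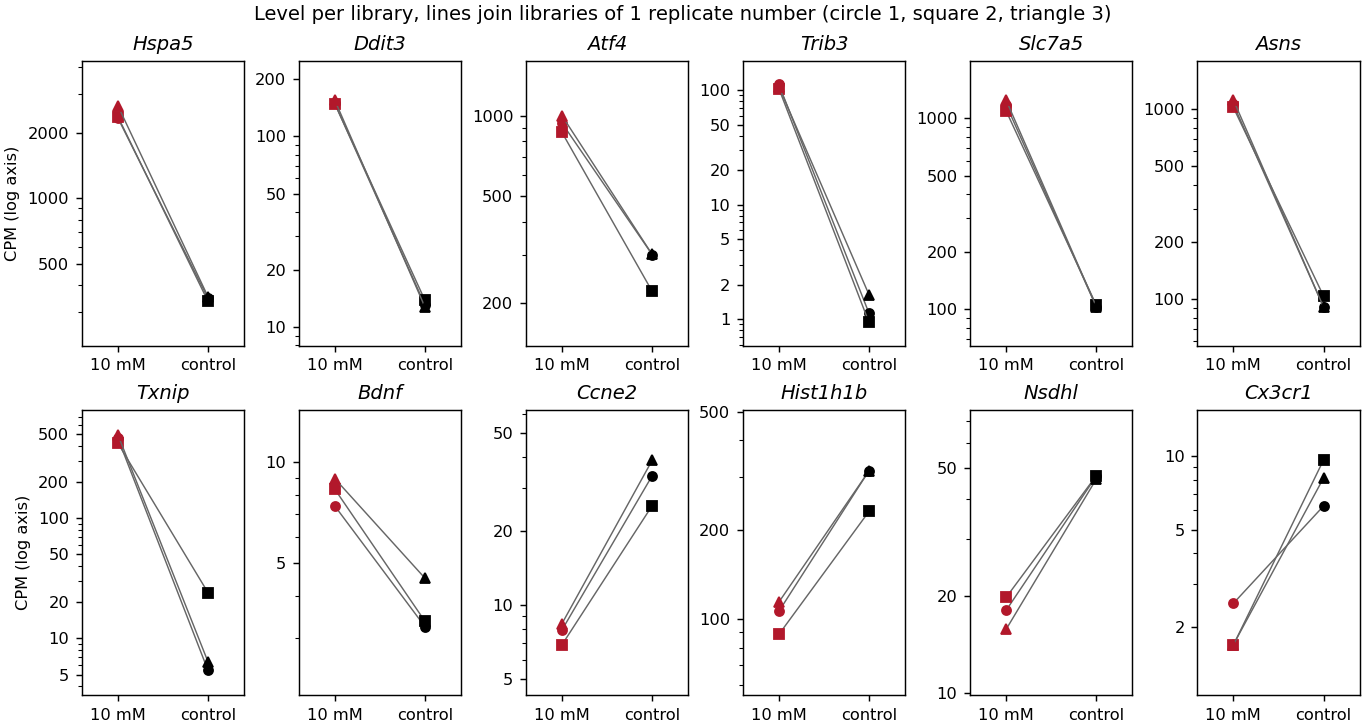
Levels (CPM, log axis) of 12 genes in the 3 libraries at 10 mM 2-DG (red, left) and the 3 control libraries (black, right), with lines joining libraries of the same replicate number. In each panel every line runs in one direction and the 2 groups do not overlap; Txnip has 1 control library above the other two.

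Bdnf, the gene of the study's title, rose about 2-fold. It lies on chromosome 2, 109674700 to 109727007, plus strand. It had 7.42, 8.32 and 8.95 CPM at 10 mM, against 3.24, 3.36 and 4.51 CPM in the control, a log2 fold change of 1.15, with an SE of 0.094 and an adjusted p of 8.45e-10. All 3 libraries at 10 mM lay above all 3 control libraries. Other growth factors and receptors did not follow: of 20 tested genes of the trophic list, Bdnf included, 2 rose and 12 fell (median −0.21; 2 and 7 without the pairing). The other rise was in Ntrk3, the receptor of neurotrophin 3 (0.4). Igf1, insulin-like growth factor 1, fell to 5.68, 5.24 and 5.16 CPM at 10 mM, against 10.3, 12.6 and 10.6 CPM in the control, and Sort1, a receptor that takes part in the sorting of Bdnf, fell by 0.53 on the log2 scale. Ntrk2, which encodes the Bdnf receptor TrkB and was chosen after its values were seen, fell to 208, 209.5 and 197 CPM at 10 mM, against 227, 237 and 214 CPM in the control.

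Secreted stress factors rose strongly in a few members. Of 24 listed genes 18 could be tested, 10 rose and 3 fell. Stc2, stanniocalcin 2, had 49.1, 43.8 and 52.7 CPM at 10 mM, against 3.14, 3.31 and 2.75 CPM in the control (3.99), and Vegfa, the main growth factor of blood vessels, had 210.2, 219 and 218 CPM at 10 mM, against 27.2, 34 and 27.3 CPM in the control (2.87). Gdf15, a hormone of cell stress, had 4.81, 6.76 and 4.46 CPM at 10 mM, against 0.294, 0.274 and 0.196 CPM in the control. Neither Stc2, Vegfa nor Gdf15 had a library at 10 mM within the control range. Fgf21, a fasting hormone that was chosen after its values were seen, had 96 counts over the 3 libraries at 10 mM against 2 over the control libraries, a ratio of 47.6 with a 95% counting interval of 12.8 to 398. Angptl6 rose by 0.87, and Igfbp2, an insulin-like growth factor binding protein, fell by 0.58 on the log2 scale.

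Regulators of the growth kinase mTORC1 were mixed, with the stress-induced inhibitors Sesn2 and Ddit4 on top. Sesn2, sestrin 2, had 287, 255 and 300.2 CPM at 10 mM, against 20.8, 26.5 and 23.4 CPM in the control (log2 fold change 3.57), and Ddit4, which encodes REDD1, had 186, 182 and 196 CPM at 10 mM, against 45.1, 47.9 and 41.4 CPM in the control (2.07). Deptor, an inhibitor within the complex, rose by 1.09 and Akt1s1 by 0.64. Of 34 genes 19 rose and 9 fell (median 0.14). The falls included Rragd, a GTPase that recruits mTORC1 to lysosomes, by 0.82, and Nprl3, part of a complex that restrains mTORC1, by 0.65, on the log2 scale. Relatives of the top inhibitors did not rise with them. Ddit4l fell by 0.89 on the log2 scale, and Sesn1 did not pass (−0.018). Both were chosen after their values were seen.

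Components of translation rose broadly and mostly by small amounts. Of 79 cytosolic ribosomal protein genes 64 rose and 0 fell (median 0.29), with 49 rising and 3 falling where library totals alone set the scale and 1 falling when control replicate 2, control replicate 3 or replicate 3 at 10 mM was left out. Rpl12 rose by 1.16 and Rpl10a by 1.15, the 2 members past 2-fold. Ribosomal protein genes have many processed copies in the genome, so the share of reads each one received is uncertain. Of 39 initiation factors and regulators 30 rose and 4 fell (median 0.32). Eif4ebp1, an inhibitor of cap binding and a target of ATF4, had 201, 163 and 218 CPM at 10 mM, against 11.7, 13.5 and 16.4 CPM in the control (3.8), far above the others; Eif2s2, the beta subunit of eIF2, rose by 1.65 and Eif1, which guards the choice of start codon, by 1.49. In ribosome biogenesis 30 of 40 genes rose and 4 fell (median 0.21), led by Polr1c, a subunit of RNA polymerases I and III (0.78). The 45S ribosomal RNA gene Rn45s fell by 0.81 on the log2 scale, at 5604, 5785 and 5587 CPM at 10 mM, against 9977, 9298 and 10349 CPM in the control; the library kit removes ribosomal RNA, so its level also depends on that step.

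Several host transcripts of small nucleolar RNAs rose by large amounts. These transcripts carry the small RNAs in their introns and have short reading frames, and in mammals they are known targets of nonsense-mediated decay, which depends on translation. Of 13 tested hosts 7 rose and 1 fell, 5 of them at least 2-fold (median 0.58). Snhg12 had 119, 101 and 124 CPM at 10 mM, against 17.1, 18.6 and 20.6 CPM in the control (2.61), Snhg1 had 203, 177 and 215 CPM at 10 mM, against 39.7, 35.7 and 41.2 CPM in the control (2.35) and Snhg5 had 218, 186 and 232 CPM at 10 mM, against 52.7, 56.9 and 54.8 CPM in the control (1.94). The groups were well apart in all 3. Gas5, a host chosen after its values were seen, had 285, 289 and 303 CPM at 10 mM, against 143, 149 and 148 CPM in the control (1.0). Snhg18 fell by 0.57. Small nucleolar RNAs counted as genes of their own numbered 83, of which 19.3% rose and 2.41% fell. Both shares were below those of all genes tested, 34.4% and 33.8%, so most of these small RNAs did not pass.

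**Figure D4:**
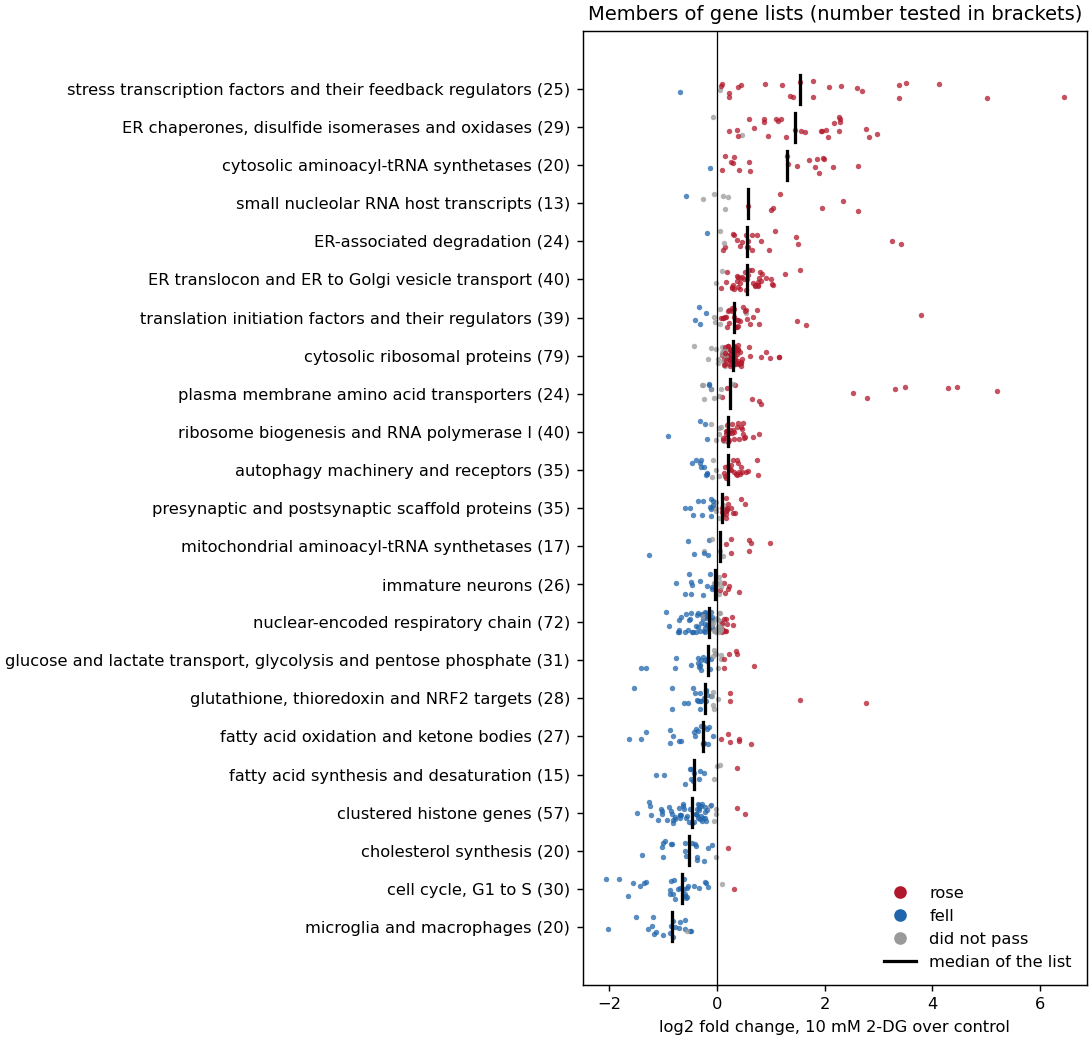
Each point is a tested member of the named list (number tested in brackets) at its log2 fold change, 10 mM 2-DG over control, red where it rose, blue where it fell and grey where it did not pass, with the median of the list as a black bar. Medians run from 1.53 for the stress transcription factors at the top to −0.83 for microglial genes at the bottom, against −0.011 for all genes tested.

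Genes of entry into S phase fell nearly without exception. Of 30 genes of the step from G1 to S 28 fell and 1 rose, 7 of the falls being at least 2-fold (median −0.65). Ccne2, cyclin E2, lies on chromosome 4, 11191351 to 11204779, plus strand and is overlapped by Ints8 on the opposite strand. It had 7.93, 6.9 and 8.41 CPM at 10 mM, against 33.6, 25.4 and 38.8 CPM in the control, a log2 fold change of −2.07 (SE 0.063). Ccne1, its relative, had 4.67, 3.91 and 4.51 CPM at 10 mM, against 17.4, 11.7 and 17 CPM in the control (−1.81), and Tk1, thymidine kinase, fell by 1.65 on the log2 scale. Rrm2, the small subunit of ribonucleotide reductase, had 53, 41.1 and 56.6 CPM at 10 mM, against 139, 101 and 148 CPM in the control (−1.36). In all 3 genes shown by library the control values were above all values at 10 mM. The transcription factors E2f1 and E2f2 fell by 1.43 and 1.56, and the replicative helicase genes Mcm2 to Mcm7 fell by between 0.17 (Mcm7) and 0.88 (Mcm3). Rb1, the brake on E2F factors, was the member that rose (0.31), and Cdc45 did not pass.

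Later cell cycle genes moved less. Of 30 genes of G2 and mitosis 14 fell and 5 rose (median −0.061). Without the pairing 6 fell and 0 rose, and 3 rose without control replicate 2. Ccnb2, cyclin B2, had the largest fall (11.7, 11.6 and 14.1 CPM at 10 mM, against 23.7, 19.7 and 26.3 CPM in the control, log2 fold change −0.89). Mki67 and Top2a, which mark proliferating cells and were chosen after their values were seen, had 241, 204 and 245 CPM and 447, 381 and 479 CPM at 10 mM, against 233, 222 and 288 CPM and 521, 417 and 576 CPM in the control. Their log2 fold changes were −0.1 and −0.21, and the calls were lost without the pairing (adjusted p = 0.45 and 0.209).

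For the S phase genes a site for E2F factors was searched as TTTGGCGC or TTTCCCGC on both strands. Mcm6 and Cdc6, a helicase subunit and the factor that loads it onto origins, are shown with the matches in capitals, as members of the group that fell.
Mcm6 (chr1:128359706-128359855, minus strand): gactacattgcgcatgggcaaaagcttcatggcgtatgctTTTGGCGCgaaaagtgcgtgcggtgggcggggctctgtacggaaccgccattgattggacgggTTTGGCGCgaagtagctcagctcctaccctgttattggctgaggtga
Cdc6 (chr11:98907973-98908060, plus strand): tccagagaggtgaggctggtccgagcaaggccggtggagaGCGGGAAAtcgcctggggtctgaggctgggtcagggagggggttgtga
The first of 2 matches in Mcm6 began 110 bases before the start, and the match in Cdc6, which is on the other strand, began 138 bases before it. Of the 24 listed genes with a promoter 10 (41.7%) held a site: Cdc6, Cdk2, Cdt1, E2f2, E2f7, Mcm3, Mcm5, Mcm6, Mcm7 and Pola1. The share was 3.24% of the tested genes with a promoter, 2.96% of those that fell at least 2-fold and 1.8% of all promoters.

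Clustered histone genes, whose RNA is made in S phase, fell with them. Of 57 tested genes 51 fell and 2 rose, 8 of the falls being at least 2-fold (median −0.46; 2 and 38 rising and falling without the pairing). Hist1h1b, a linker histone, had 106, 88.6 and 114 CPM at 10 mM, against 316, 230.5 and 316 CPM in the control (−1.48), and Hist1h4b had 37.4, 40.7 and 41.4 CPM at 10 mM, against 96.2, 97.8 and 92.2 CPM in the control (−1.26). Neither had overlapping groups. Hist2h2ab and Hist2h4 were the members that rose (0.52 and 0.37). Histone genes of a cluster are nearly identical in sequence, so how reads were shared among them is uncertain, and 11 of the 68 in the table had too few counts to be tested.

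Lipid synthesis genes fell as a group. Of 20 genes of cholesterol synthesis 18 fell and 1 rose (median −0.51), and the same numbers fell and rose with library totals. Nsdhl, which removes methyl groups from the sterol ring, had 18, 19.8 and 15.8 CPM at 10 mM, against 47.3, 47.4 and 46.2 CPM in the control (−1.4 (SE 0.052)), and Hmgcs1, at the start of the pathway, had 526, 555 and 396 CPM at 10 mM, against 1089, 987 and 854 CPM in the control (−1.0 (SE 0.036)). The groups did not overlap in either. Sqle, squalene epoxidase, was chosen after its values were seen and fell by 0.86 on the log2 scale. Sc5d was the member that rose (0.2). Vldlr, a receptor for lipoproteins rich in triglyceride, rose to 411, 372 and 414 CPM at 10 mM, against 119, 123 and 109.7 CPM in the control. Srebf1, a transcription factor of lipid synthesis, fell by 0.71. Of 15 genes of fatty acid synthesis and desaturation 11 fell and 1 rose (median −0.44), with Scd1, a desaturase, at −0.99 and Fads1 as the rise (0.37).

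Transcripts for mitochondrial fuel use fell in some branches. Of 27 genes of fatty acid oxidation and ketone bodies 21 fell and 6 rose (median −0.26; 4 and 13 rising and falling without the pairing). Cpt2, which completes the entry of fatty acids into mitochondria, had 1.78, 2.09 and 1.65 CPM at 10 mM, against 5.32, 5.83 and 6.02 CPM in the control (−1.64), and Etfb, an electron carrier of the pathway, had 7.72, 7.14 and 8.34 CPM at 10 mM, against 23.6, 18.8 and 19.5 CPM in the control (−1.41). Of 72 nuclear genes of the respiratory chain 39 fell and 11 rose (median −0.15); 4 rose without the pairing, and 4 with library totals, where 48 fell. The changes stayed below 2-fold, with Uqcr11 (−0.95) and Ndufb3 (−0.88), small subunits of complexes III and I, falling most. In the citric acid cycle and pyruvate metabolism 12 of 30 genes rose and 11 fell, and 10 and 15 did with library totals. Pck2, the mitochondrial enzyme that makes phosphoenolpyruvate, stood out with 129, 107 and 129.9 CPM at 10 mM, against 10.8, 9.46 and 12.4 CPM in the control (3.48). Mitochondrial ribosomal protein genes were split, with 40 of 77 rising and 22 falling, among them Mrpl9 (0.84) and Mrpl55 (−1.31).

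Other protective programmes did not move alike. Of 28 genes of glutathione, thioredoxin and NRF2 19 fell and 4 rose (median −0.23). The 2 rises of at least 2-fold were in Osgin1, an oxidative stress gene of very low level (log2 fold change 2.77 at a mean log2 CPM of −1.68) that was chosen after its values were seen, and in Hmox1. Hmox1, heme oxygenase 1, had 55.4, 58.7 and 60.2 CPM at 10 mM, against 18.7, 24.7 and 16.8 CPM in the control (1.54). Gsta4, a glutathione transferase, fell to 7.6, 6.69 and 8.37 CPM at 10 mM, against 21.1, 18.6 and 26 CPM in the control, and Prdx1, a peroxiredoxin, fell by 0.83. Heat shock and cytosolic chaperone genes were split, 13 of 30 rising and 10 falling, with 8 and 8 without the pairing and 8 and 13 with library totals. Of 19 mitochondrial chaperones and proteases 10 rose and 4 fell (median 0.14), with 7 and 8 where library totals alone set the scale. Hspa9, the main chaperone of the mitochondrial matrix, rose by 1.36, and Hspd1, its partner system, had a log2 fold change of −0.11 (adjusted p = 0.24 without the pairing). Of 41 proteasome genes 21 fell and 5 rose (median −0.099); 12 fell without the pairing and 31 with library totals. In autophagy 22 of 35 genes rose and 9 fell (16 and 11 with library totals), led by Atg4a (0.76) and Atg12 (0.74), while lysosomal genes were split 18 to 15 and turned to 10 and 18 with library totals.

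Genes of cell death moved in both directions. Hrk, a neuronal activator of apoptosis of the BH3-only family, had 90, 102 and 89.6 CPM at 10 mM, against 24.6, 33.3 and 21.9 CPM in the control (1.83), and Bbc3, which encodes PUMA of the same family, had 46.6, 58.1 and 45.4 CPM at 10 mM, against 22.6, 31.2 and 20.7 CPM in the control (1.02). Bmf, a further member of the family, fell to 5.52, 6.88 and 5.42 CPM at 10 mM, against 14, 14 and 13.4 CPM in the control. The groups did not overlap in these 3 genes. Bok fell by 0.93 and Bcl2, which protects from apoptosis, by 0.28. Over the BCL2 family 5 of 17 genes rose and 8 fell. Of 24 p53 targets and regulators 5 rose and 8 fell (5 and 3 without the pairing, 4 and 12 with library totals), and the p53 antagonists Mdm2 (0.69) and Mdm4 (0.63) were among those that rose.

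Immediate early genes were mixed as well, with 15 of 39 rising and 13 falling (13 and 15 with library totals). Gadd45a, a stress gene of DNA repair and growth arrest, rose most (2.04), followed by Klf2 (1.4), a factor of low level chosen after its values were seen, Jun (204, 225 and 208 CPM at 10 mM, against 80.9, 103 and 84.1 CPM in the control; 1.25), Nfil3 (1.19) and Klf4 (1.12). Fos, chosen after its values were seen, had 12.6, 4.08 and 14.2 CPM at 10 mM, against 10.4, 5.23 and 12.2 CPM in the control; the groups overlapped and it did not pass (adjusted p = 0.341). Npas4 and Arc, genes of neuronal activity chosen after their values were seen, fell only with the pairing (adjusted p = 0.634 and 0.084 without it). Ctgf, a target of YAP, fell to 10.7, 17.1 and 18.9 CPM at 10 mM, against 22.4, 46.2 and 37.2 CPM in the control.

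Clock genes tended upward in 14 of 21 members, with 2 falling (median 0.17), though 8 and 5 rose and fell with library totals, and 4 fell when replicate 2 at 1 mM was left out. Ciart, a repressor of the clock, had 15.7, 12.4 and 18.2 CPM at 10 mM, against 2.28, 1.28 and 1.77 CPM in the control (3.14); it is overlapped by C920021L13Rik. Cry2, another repressor, had 72.6, 71.1 and 69.8 CPM at 10 mM, against 33.6, 31.6 and 33.2 CPM in the control (1.12), and Per2 rose by 0.74. Dbp, an output gene of the clock, fell by 0.69. The libraries were taken at a single time after treatment, so the phase of any rhythm is not given by these values.

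Genes by which the cultures are known as neurons changed little. Of 26 markers of immature neurons all were tested, 7 rose and 12 fell (median −0.039), and 2 rose and 9 fell without the pairing. Their summed level was 17158 to 18119.7 CPM at 10 mM and 19293 to 19909.5 CPM in the control. Tubb3, the neuronal tubulin, had 2185, 2146 and 2036 CPM at 10 mM, against 3210.3, 2759 and 2952 CPM in the control (−0.48), and Dcx, doublecortin, which was chosen after its values were seen, had 640.1, 579 and 606 CPM at 10 mM, against 582, 618 and 631 CPM in the control (−0.0033). Tubb3 fell with groups that did not overlap, and Dcx did not pass. Cd24a, a surface glycoprotein of young neurons, fell by 0.77 and Sox4, a factor of neuronal differentiation, rose by 0.42. Receptor, channel and synapse genes were split and never moved 2-fold. Of 35 presynaptic and postsynaptic scaffold genes 16 rose and 12 fell, but 7 and 5 did without the pairing and 10 and 15 with library totals. Of 34 subunits of glutamate, GABA and glycine receptors 13 rose and 10 fell (7 and 6 and 7 and 11 in the same settings), and of 41 ion channel subunits 16 rose and 14 fell (10 and 6 and 12 and 20). The vesicular glutamate transporter Slc17a6 (0.52) and gephyrin, Gphn (0.44), rose, and complexin 1, Cplx1, fell by 0.60.

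Among genes of inhibitory neurons 6 of 18 rose and 8 fell. Gad1, which makes GABA, had 168, 175 and 160.2 CPM at 10 mM, against 129.8, 133 and 119 CPM in the control (0.4) and is overlapped by Gad1os, and Sst, somatostatin, fell by 0.36. Of 20 genes of radial glia and progenitors 13 fell and 5 rose (2 and 7 rising and falling without the pairing, 3 rising without control replicate 2 or without replicate 2 at 10 mM), with summed levels of 2399 to 2944 CPM at 10 mM and 2697 to 3488 CPM in the control. Fabp7, a fatty acid binding protein of radial glia, had 126, 79.9 and 117 CPM at 10 mM, against 385, 267 and 358 CPM in the control (−1.65), and Nes, nestin, fell by 0.73. Olig1, a factor of the oligodendrocyte lineage, had 2.59, 3.04 and 3.1 CPM at 10 mM, against 15.2, 12.9 and 13 CPM in the control (−2.23). In Fabp7 and Olig1 every library at 10 mM was below every control library.

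Genes of microglia and macrophages fell in a larger share of members than any other of the 55 lists examined. Of 20 genes 19 fell and 0 rose, 8 of them at least 2-fold (median −0.83), and 17 fell without the pairing. Their summed level was 67.6 to 95.9 CPM at 10 mM and 122 to 181 CPM in the control, so the groups did not overlap. C1qa, a complement component, had 3.23, 4.79 and 2.64 CPM at 10 mM, against 9.21, 13.2 and 7.72 CPM in the control (−1.5). Tlr13, a receptor for bacterial RNA, and Fcgr3, an antibody receptor, are known from macrophages but not on the list. They are named for being among the 12 largest falls given below, so their direction was set by that choice. Macrophage genes off the list were not counted. Tlr13 had 0.947, 0.735 and 0.368 CPM at 10 mM, against 4.51, 5.41 and 4.21 CPM in the control (−2.8). Fcgr3 had 0.855, 1.28 and 0.91 CPM at 10 mM, against 4.41, 6.24 and 3.82 CPM in the control (−2.24). The values of C1qa, Tlr13 and Fcgr3 were low in every library, and highest in control replicate 2. P2ry12, a defining gene of resting microglia, had 0, 0.285 and 0.217 CPM at 10 mM, against 0.245, 0.183 and 0.305 CPM in the control, and did not pass (adjusted p = 0.379). In bulk RNA, fewer cells of a type and less RNA per cell cannot be told apart. Other genes with high levels in macrophages, Stab1, Msr1 and Plau, were among the 12 largest falls of genes that have a mean log2 CPM of at least 1 and are not predicted genes or clones (−2.0, −1.87 and −2.67), together with Tlr13, Fcgr3, Cx3cr1, Olig1, Ccne2, Nwd1 (−1.92), Smim18 (−1.9), Slfn9 (−1.83) and Mt3 (−1.82), a metallothionein of the brain. How far microglial content took part in the falls of such genes was not tested.

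Markers of astrocytes and of the oligodendrocyte lineage fell or did not pass, and those of vessels and fibroblasts were mixed. Astrocyte markers had 7 of 10 tested genes falling and 0 rising (0 and 2 rising and falling without the pairing), with Aqp4 at −1.03. In the oligodendrocyte lineage 5 of 9 fell and 0 rose. Of endothelial and pericyte markers 3 of 10 rose and 2 fell, and of fibroblast markers 3 of 12 rose and 5 fell (0 and 2 without the pairing, 3 falling without replicate 3 at 10 mM). Summed levels were 367 to 475 CPM at 10 mM and 426 to 551 CPM in the control for astrocytes, 43.3 to 55.3 CPM at 10 mM and 45.8 to 63.6 CPM in the control for endothelial cells and pericytes, and 203 to 293 CPM at 10 mM and 189 to 296 CPM in the control for fibroblasts. Gjb6 and S100b of astrocytes, Sox10 and Mog of oligodendrocytes, Cldn5, Cdh5 and Tie1 of vessels and the adult globin genes had too few counts to be tested. The part of these cells in the results was not tested.

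The high dose was also compared with 1 mM. Between 10 mM and 1 mM 4648 genes rose (30.7%) and 3880 fell (25.6%). Both comparisons of the high dose use the same libraries at 10 mM, so the values of each are given side by side and no overlap is counted. Hspa5 had 348, 337 and 354 CPM with no 2-DG, 1402, 1349 and 1617 CPM at 1 mM and 2340.0, 2373 and 2664 CPM at 10 mM, and the difference of 10 mM from 1 mM was 0.76 (SE 0.031, adjusted p of 1.96e-13) on the log2 scale. Bdnf had 3.24, 3.36 and 4.51 CPM with no 2-DG, 5.38, 5.24 and 6.18 CPM at 1 mM and 7.42, 8.32 and 8.95 CPM at 10 mM, a difference of 0.55 (SE 0.088, adjusted p of 1.87e-05). Both rose at each step, the 3 libraries of a dose lying above those of the dose before. Pck2 was nearly as high at 1 mM (118, 93.6 and 122 CPM) as at 10 mM, with a difference of 0.14 (SE 0.034, adjusted p of 0.00151). Derl3 and Cyb5r2 did not pass between the doses, with differences of −0.27 and 0.3.

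Another set had most of its change between 1 and 10 mM. Klf10 had 20.4, 24.6 and 22.9 CPM at 1 mM and a difference of 1.74 (SE 0.084, adjusted p of 1.65e-12) between 10 mM and 1 mM. Snhg1 had 74.9, 55.9 and 78.1 CPM at 1 mM and a difference of 1.51 (SE 0.041, adjusted p of 7.64e-16). Histone genes as a list had a median log2 fold change of 0.00093 at 1 mM over control and −0.46 at 10 mM over control, and 55 of 57 fell between 10 mM and 1 mM. Cholesterol synthesis had medians of −0.12 and −0.51 in the same comparisons, and ribosomal protein genes had 0.063 and 0.29. For microglial genes the medians were alike, −0.83 at 1 mM and −0.83 at 10 mM. Cx3cr1, the fractalkine receptor of microglia, had 6.25, 9.64 and 8.14 CPM with no 2-DG, 0.331, 0.193 and 0.27 CPM at 1 mM and 2.5, 1.68 and 1.69 CPM at 10 mM, so it was lowest at 1 mM. It was higher at 10 mM than at 1 mM by 2.85 (SE 0.3, adjusted p of 8.52e-08). Its span is overlapped by Gorasp1, Csrnp1 and Xirp1 on the same strand and by Wdr48 and Ttc21a on the other, so reads of those genes may be included.

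**Figure D5:**
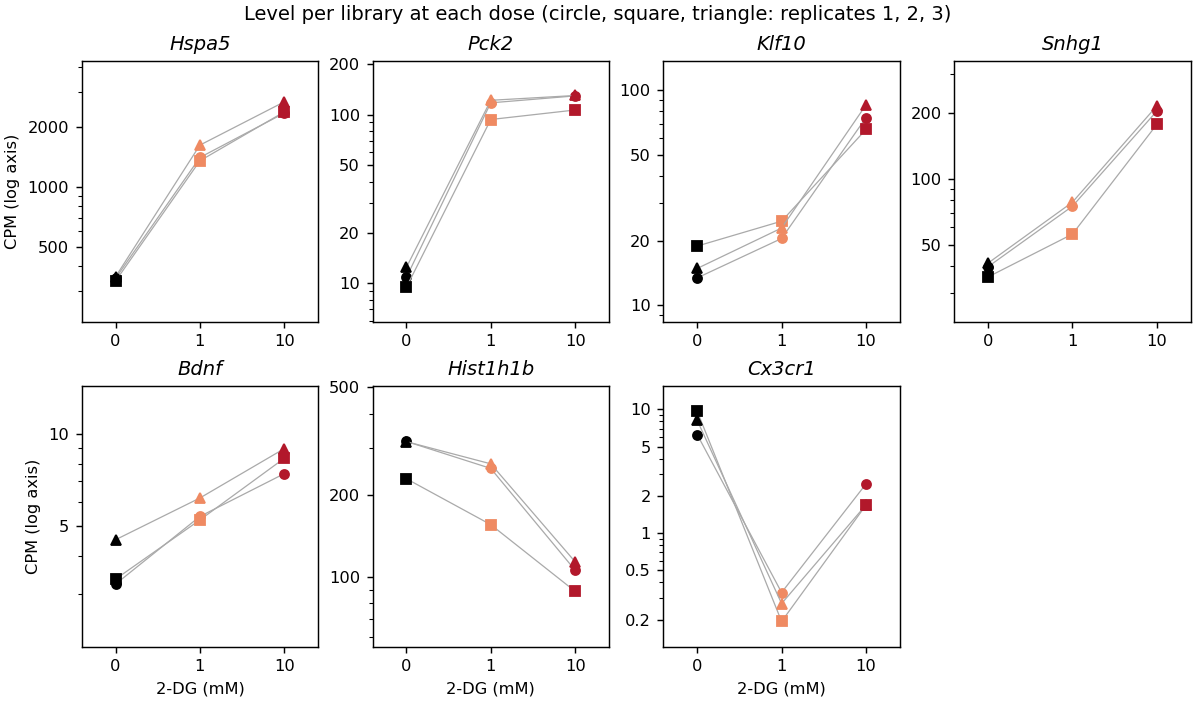
Levels (CPM, log axis) of 7 genes in the 3 libraries at 0, 1 and 10 mM 2-DG, with lines joining libraries of the same replicate number. Hspa5 and Bdnf climb at each dose, Pck2 is near its 10 mM level at 1 mM, Klf10, Snhg1 and Hist1h1b change mostly between 1 and 10 mM, and Cx3cr1 is lowest at 1 mM.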

How the data were processed

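The authors deposited unnormalized gene counts, a table of 24061 rows whose values are whole numbers. Per the labels' protocols, RNA was amplified into cDNA before stranded libraries were made with removal of ribosomal RNA, and STAR aligned the reads to mm10. Besides STAR, the submitters' processing notes list HTSeq and version 2.17 of bcl2fastq. The annotation and strand setting of the counting are not stated in them, so overlapping genes and near-identical copies are uncertain. All 9 columns matched library titles and 0 were left unused. A row that names no gene (at most 0.000216% of a library's counts) stayed out of sizes and tests, and 4 rows with symbols altered by spreadsheet software were not named.

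The filter was filterByExpr in edgeR (minimum count 10, minimum total 15), which kept 15153 genes. TMM scaling and edgeR's quasi-likelihood F test were used on all 9 libraries, with 3 groups and the replicate number as a block (4 residual degrees of freedom), two-sided, with Benjamini-Hochberg adjustment over all genes of the fit; calls were made below 0.05. Adjusted p-values in the text are from that test. A standard error (SE) is the size of the log2 fold change divided by the square root of F. Totals were 43.3 M to 48.2 M at 10 mM and 40.1 M to 45.0 M in the control, and intervals and floors cover counting error only.

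The pairing rests on the replicate numbers in the titles. Deviations from group means of same-numbered libraries correlated at 0.351, 0.470 and 0.455 across genes, against −0.112 to −0.323 for different numbers, where genes are not independent replicates. Without the block 3899 genes rose and 3639 fell.

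The members and the 55 gene lists were chosen with earlier results of these data known. Named were 6 set genes (Bdnf, Atf4, Ddit3, Hspa5, Txnip and Rn45s), the 12 largest rises and 12 largest falls past the threshold with a mean log2 CPM of at least 1 and the same direction in all 3 pairs (predicted genes, clones and altered symbols left out), the 6 rises and 6 falls with the smallest p, and up to 4 members of each list in each direction; others are marked where they appear, and a few members are not reported here. Lists are described by counts and medians beside those of all genes. Positions and overlaps are from GENCODE M21 (GRCm38), in which 14430 of the genes tested were found once, and promoters are from RefSeq GRCm38.p6, found for 11107. The steps were tested on simulated data. Alternatives were no block, 6 libraries, other scaling, DESeq2, no filter, a minimum fold of 1.5 and leaving out libraries. Software was R 4.3.3, edgeR 4.0.16, limma 3.58.1, DESeq2 1.42.0, Python 3.11.15 and matplotlib 3.10.9.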

Additional observations from a re-analysis of the deposited data

Results flagged for a closer look

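A row of the table names no gene and took no part in the comparisons. Its label calls it an enhancer, but the sources used here do not state which one or where it lies. It had 84, 66 and 104 counts at 10 mM, against 10, 9 and 14 counts in the control, which are 1.94, 1.57 and 2.25 CPM at 10 mM, against 0.245, 0.206 and 0.305 CPM in the control. The means were 1.92 ± 0.345 CPM at 10 mM and 0.252 ± 0.0502 CPM in the control (SD, n = 3 each), a ratio of 7.62. The row is listed here because its signal at 10 mM lies outside the genes tested and above the level in the control libraries, whose range it did not overlap.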

How the results depend on the processing

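The counts of 5213 genes that rose and 5117 that fell stayed within 1.5 times under every alternative for the analysis except a minimum fold of 1.5, where 581 rose and 843 fell by construction of that test. With libraries left out singly or by replicate number, 4294 to 5170 rose and 4654 to 5451 fell. Library totals alone gave 3995 rises and 6372 falls, and DESeq2 gave 4725 and 4654. The replicate block was part of the model; without it 3899 rose and 3639 fell, 7535 of them among the calls made with it and in the same direction, and the calls of 47 of 435 named genes were lost, a loss that does not measure a weaker effect. No call of a named gene turned its direction in these alternatives. Library totals ended the calls of 11 named genes and DESeq2 of 7. Of the counts of list members, 28 moved by more than 1.5 times without the block, 20 with library totals, 2 with DESeq2 and 97 at the minimum fold. In the lowest of 5 equal groups by mean level 8.35% rose and 29.2% fell, against 54.1% and 27.8% in the highest; the part of depth in this was not tested.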

Other observations

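Of 33 splicing regulators 19 rose and 9 fell. Srsf6 and Srsf3, serine- and arginine-rich factors that favour exon inclusion, had log2 fold changes of 0.75 and 0.63, with 549.8, 471 and 564 CPM at 10 mM, against 331, 272 and 341 CPM in the control for Srsf6. Hnrnph1, a ribonucleoprotein that also shapes splicing, had 567, 508 and 561 CPM at 10 mM, against 854, 733 and 888 CPM in the control (−0.59), and Hnrnpa2b1 fell by 0.49 on the log2 scale. Neither Srsf6 nor Hnrnph1 had overlapping groups.

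Among the larger classes of long non-coding genes falls outnumbered rises, whereas of 83 small nucleolar RNA genes 19.3% rose and 2.41% fell. Of 136 tested genes annotated as antisense 44.1% fell and 9.56% rose (median log2 fold change −0.45), of 29 transcripts from bidirectional promoters 58.6% fell and 3.45% rose (−0.63), and of 158 intergenic non-coding genes 39.2% fell and 15.2% rose (−0.31), beside 34% and 35.6% of 13622 protein-coding genes. Dlx1as, the antisense partner of the interneuron factor Dlx1, is an example chosen after its values were seen, with 58.4, 73.3 and 56.2 CPM at 10 mM, against 143, 143 and 134 CPM in the control (−1.17), while Dlx1 had 184, 169 and 188 CPM at 10 mM, against 208, 178 and 227 CPM in the control (−0.18; adjusted p = 0.154 without the pairing). Overlap of such genes with others on either strand was not removed, and its part in the difference was not tested. The classes were also not matched to protein-coding genes by level. Over all genes tested, 8.35% rose and 29.2% fell in the lowest of 5 equal groups by mean level. In the next group 19.5% rose and 46.6% fell. The part of level in the shares of the non-coding classes was not tested. Among protein-coding genes sorted by exon length, 25.2% rose and 41% fell in the shortest of 5 equal groups, and 45.9% rose and 27.7% fell in the longest.

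The falls with the smallest p were in Fabp7 and Rrm2, with values given above, Dbi (34.5, 26.7 and 31.9 CPM at 10 mM, against 92.3, 70 and 86.5 CPM in the control), which binds acyl-CoA, and Tfrc (136, 130.4 and 128 CPM at 10 mM, against 271, 277 and 251 CPM in the control), the transferrin receptor. Uhrf1, which maintains DNA methylation, fell by 1.32 on the log2 scale. In Dbi and Tfrc all values at 10 mM were below all control values.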
